A study of Ceratopteris richardii with 6 samples.

Results

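In callus of the fern Ceratopteris richardii, 164 genes were at least 1 log2 unit higher in differentiating than in proliferating callus, with each differentiating library above each proliferating one. They were selected on these very values, from the 30001 gene IDs of the expression table. A gene had to carry a KP509 locus tag (the systematic gene identifier of the published assembly), to average at least 1 and under 1000 FPKM over the 6 libraries, and to differ by at least 1 in mean log2(FPKM + 1). Its lowest differentiating value also had to exceed its highest proliferating value. FPKM, fragments counted per transcript length and scaled to the mapped fragments of the library, is a relative abundance. Since the rule used the contrast between the groups, the sizes below describe how the genes were chosen and carry no test.

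Callus is a mass of dividing plant cells with little organisation that can be kept growing in culture. On passing from proliferation to differentiation, some of its cells leave this state and form organised tissue such as shoots. Ceratopteris richardii is a laboratory model of fern development, and the comparison asks which genes differ at that passage. The assembly table gave no symbol other than the locus tag, so the genes are described by tag and value, and no marker of callus could be looked up by name.

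Polyadenylated RNA was sequenced from 3 libraries of proliferating and 3 of differentiating callus, which the labels call biological replicates without saying whether they came from separate cultures. The library titles begin with BA in the proliferating and MS in the differentiating group, and the labels do not say what either stands for. Strain, culture medium, time and treatment are not stated otherwise, and any of these that differs with the group cannot be told apart from it. In bulk tissue, more cells of a type and more RNA per cell cannot be told apart either. Summed FPKM ran from 953954 to 1027755 per library, and the number of reads behind them is unknown. Differentiating 3 stood apart from its group: over the 22371 genes averaging 1 FPKM or more its log2 values had a correlation of 0.981 with proliferating 1, but 0.956 with differentiating 1 and 0.922 with differentiating 2. Proliferating 2 also lay across the groups, with a correlation of 0.965 with differentiating 1, but 0.959 with proliferating 1 and 0.954 with proliferating 3. Its correlation was 0.955 with differentiating 2 and 0.960 with differentiating 3. The points behind each correlation are genes, not replicates.

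Of 21124 locus tags within the limits on mean FPKM, 364 differed by at least 1 upward, and in 164 of these, or 0.776% of the 21124, the groups did not overlap. The other 200 overlapped, and 157 of them would not have overlapped without differentiating 3. The same count was 91 without proliferating 2 and at most 29 without any other single library. Differentiating 3 was thus the library that most often kept a gene with this difference out of the set. Without the lower limit on the mean the rule gave 168 locus tags, and without the upper limit 165. Within the limits, 7 models carrying the authors' own IDs in place of a locus tag met the rest of the rule.

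Most of the 164 differences were modest. The log2 difference had a median of 1.23, with quartiles of 1.12 and 1.46, beside a median of -0.00031 over the 21124 locus tags. It was at least 1.5 in 40 genes, at least 2 in 12 and at least 3 in 2. Among members with a proliferating mean above 0, the ratio of mean FPKM had a median of 2.86 and reached 14.9 in KP509_12G012100, which was at 0.41, 0 and 0 FPKM in the proliferating and 1.34, 3.19 and 1.57 FPKM in the differentiating libraries. The gap between the lowest differentiating and the highest proliferating library had a median of only 0.33 on the log2(FPKM + 1) scale, was at least 1 in 7 genes and under 0.1 in 24.

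**Figure D1:**
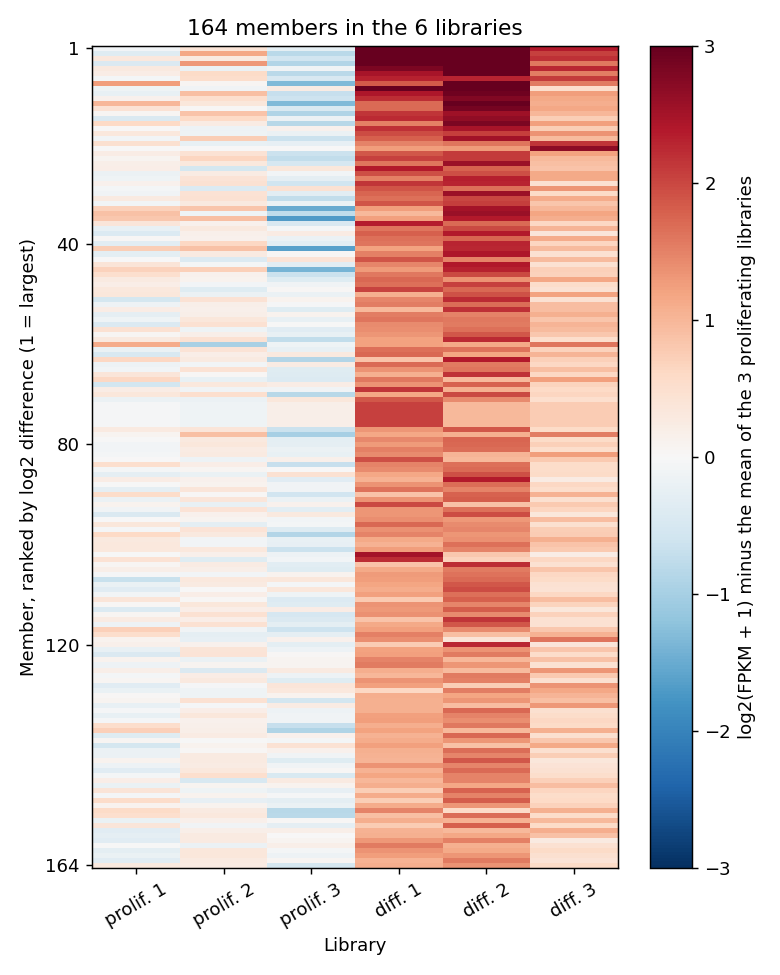
Each row is 1 of the 164 genes, ranked by log2 difference, and each column a library; colour gives log2(FPKM + 1) minus the gene's mean over the 3 proliferating libraries, with colours ending at 3 and -3. Differentiating 2 is the darkest column for most genes and differentiating 3 the palest of its group.

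The 3 differentiating libraries were not equally high, as the heat map of all members shows. The median excess over a gene's proliferating mean was 1.67 in differentiating 2, 1.36 in differentiating 1 and 0.75 in differentiating 3. Differentiating 2 was the highest of its group in 116 genes, differentiating 1 in 39 and differentiating 3 in 9. Differentiating 3 was the lowest of its group in 144 of the 164 genes (87.8%), where it was lowest in 41.2% of all 21124 locus tags. The median SD of log2(FPKM + 1) was 0.59 within the differentiating and 0.35 within the proliferating group, against 0.18 and 0.19 over all 21124. Between differentiating 1 and 2 alone the median SD was 0.31. A rule that asks for a log2 difference of at least 1 favours genes that vary between libraries. The larger SDs of the members are thus a description of the selection.

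Together the 164 genes took 0.508%, 0.593% and 0.354% of summed FPKM in proliferating 1, 2 and 3. They took 1.34%, 1.85% and 0.807% in differentiating 1, 2 and 3. The mean share was 0.485% ± 0.121 in proliferating and 1.33% ± 0.522 in differentiating callus (SD, n = 3). In proliferating 3 the share was the lowest of the 6, and in differentiating 3 it lay nearer to proliferating 2 than to differentiating 1.

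KP509_03G023700 had the largest log2 difference. It was at 6.57, 9.55 and 5.58 FPKM in proliferating 1 to 3 and at 97.2, 144 and 40.7 FPKM in differentiating 1 to 3. All 3 proliferating values were below 10 FPKM, and differentiating 3 was the lowest of the high values. The difference was 3.38 (SE 0.44 in the limma fit over all tested genes).

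The next gene on the chromosome, KP509_03G023800, followed the same order of libraries on the differentiating side. It had 9.37, 9.09 and 4.6 FPKM in proliferating and 71.9, 82.4 and 37.3 FPKM in differentiating callus, a log2 difference of 2.88 (SE 0.35). KP509_05G082600, a more abundant gene, was at 64.5, 46.6 and 48.6 FPKM and at 377, 524 and 256 FPKM. Its difference of 2.79 (SE 0.27) had the smaller error of the 3, and every differentiating library was far above the proliferating range. KP509_05G082400 was at 4.04, 13.4 and 2.69 FPKM and at 59.8, 144 and 25.9 FPKM, a difference of 3.26 with an SE of 0.70. Proliferating 2 and differentiating 3 were the libraries nearest to the other group.

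The same 2 libraries lay close together in KP509_26G035700, with 27.3, 93.1 and 19.6 FPKM in proliferating and 314, 549 and 113 FPKM in differentiating callus. Its log2 difference was 2.83 (SE 0.72). KP509_02G032800 completed the 6 largest, with 7.63, 10 and 3.20 FPKM against 39.7, 58.1 and 20.5 FPKM and a difference of 2.34 (SE 0.46). Proliferating 2 was the highest library of its group in both genes, as it was in 82 of the 164 (50.0%) and in 43.7% of all 21124 locus tags.

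By abundance, 76 of the 164 averaged 1 to under 10 FPKM, 68 averaged 10 to under 100 and 20 averaged 100 or more. These were 0.915%, 0.606% and 1.25% of the locus tags in each class, and the median log2 differences were 1.23, 1.22 and 1.33. The median of the means was 11.7 FPKM, against 14.2 FPKM over the 21124. Only 5 genes were listed at 0 in any proliferating library and none in a differentiating one. KP509_05G028200 was the single member listed at 0 in all 3 proliferating libraries.

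The most abundant member, KP509_02G055300, was at 320, 560 and 214 FPKM in proliferating and at 1172, 1948 and 647 FPKM in differentiating callus. Its log2 difference was 1.75 (SE 0.47), and the 647 FPKM of differentiating 3 stood 0.21 log2 units above the 560 FPKM of proliferating 2. KP509_21G039000 was at 99.0, 100 and 127 FPKM in proliferating 1 to 3 and at 867, 908 and 156 FPKM in differentiating 1 to 3. Differentiating 1 and 2 were thus alike and far above differentiating 3. KP509_12G001900 was at 182, 252 and 201 FPKM and at 479, 762 and 288 FPKM, a difference of 1.17 (SE 0.34).

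The other 3 of the 6 most abundant members shared a second feature, a low value in proliferating 3. KP509_33G019200 was at 578, 588 and 135 FPKM in proliferating 1 to 3 and at 872, 1787 and 594 FPKM in differentiating 1 to 3. KP509_02G022400 was at 441, 488 and 84.1 FPKM and at 606, 1273 and 511 FPKM. KP509_02G028100 was at 342, 365 and 60.1 FPKM and at 459, 1028 and 415 FPKM. Differentiating 3 passed proliferating 2 by 0.013, 0.069 and 0.19 log2 units in these 3 genes, in that order. In each of them proliferating 3 was far below its group and differentiating 2 far above. The log2 differences were 1.44 (SE 0.65), 1.48 (SE 0.70) and 1.56 (SE 0.72). Without proliferating 3 they were 0.74, 0.66 and 0.72, all below the limit of 1 that defines the set.

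Proliferating 3 was below 0.5 times both other proliferating libraries in 34 of the 164 genes (20.7%) and in 1.97% of the 21124 locus tags. A low value there lowers the proliferating mean and so raises the log2 difference. The rule itself therefore favours such genes, and the 2 shares describe the selection. Without proliferating 3, the same rule gave 161 genes, of which 129 were among the 164.

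Genes in near-constant proportion to KP509_33G019200 were sought among 13213 genes averaging at least 10 FPKM and above 0 in all libraries, a search made after its values were seen. The measure was the SD, over the 6 libraries, of the log2 ratio to that gene, whose median over those genes was 1.23. It was below 0.25 in 6 genes, on chromosomes 2, 3, 18, 28 and 33, and 3 of these were members. The members were KP509_18G055300 at 0.15, KP509_02G022400 at 0.17 and KP509_02G028100 at 0.22. KP509_33G019100, the neighbour of KP509_33G019200, was nearest at 0.12. It missed the rule because its 169 FPKM in differentiating 3 were below its 184 FPKM in proliferating 2. KP509_28G052200 missed it in the same way, by 274 FPKM in differentiating 3 against 279 FPKM in proliferating 2, and KP509_03G098900, at a mean of 14.8 FPKM, also fell outside. KP509_33G019000, 2 places before KP509_33G019200, was just above the cut at 0.255, with a log2 difference of 1.71. Copies of a gene can share reads in the authors' quantification, which these values cannot show, and whether these genes are related was not tested.

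**Figure D2:**
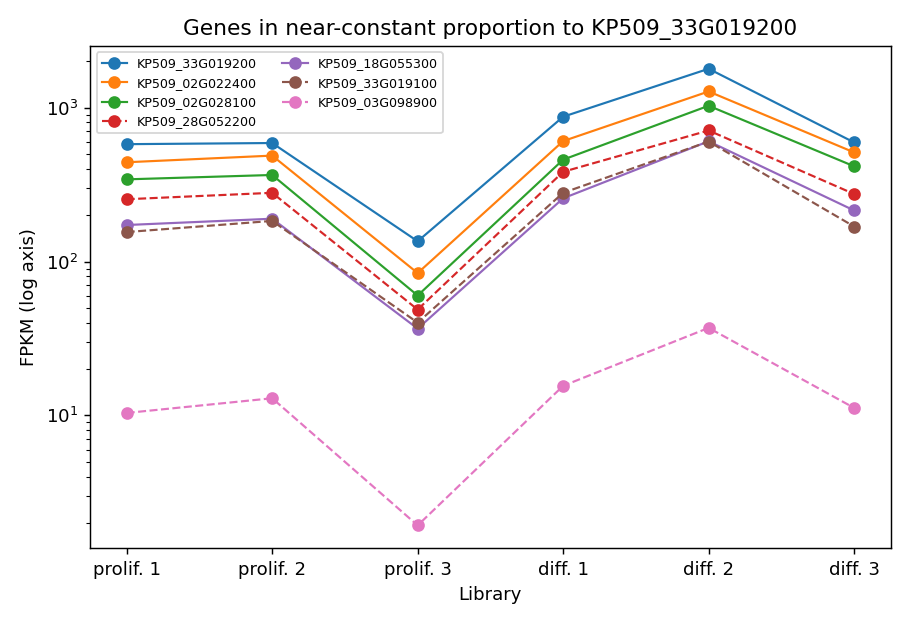
FPKM on a log axis for KP509_33G019200 and the 6 genes in near-constant proportion to it, by library; solid lines are members and dashed lines genes that missed the rule. All 7 lines dip in proliferating 3 and peak in differentiating 2, and the lines run nearly parallel.

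Other members also ran in parallel. Among 83 members averaging at least 10 FPKM whose values equalled no other member's, the 3403 pairs had a median SD of the log2 ratio of 0.59. The closest pair was KP509_10G082500 and KP509_12G094300, at 0.049, on different chromosomes. KP509_10G082500 was at 162, 246 and 225 FPKM in proliferating and 432, 693 and 288 FPKM in differentiating callus, and KP509_12G094300 at 13.2, 21.4 and 17.7 FPKM and 36.0, 58.1 and 23.9 FPKM. KP509_07G087800 joined them, at an SD of 0.077 to KP509_10G082500. All members were chosen for one pattern over the same 6 libraries, so likeness between them is a description.

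In differentiating 3, only 10 of the 164 genes were strong, taken as at least 1 log2 unit above the highest proliferating library. The median excess over that library was 0.37. In 55 genes differentiating 3 was at least 1 log2 unit below the mean of differentiating 1 and 2, and in 13 it was at or above that mean. Measured against the proliferating mean instead of the highest library, 49 genes were strong.

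**Figure D3:**
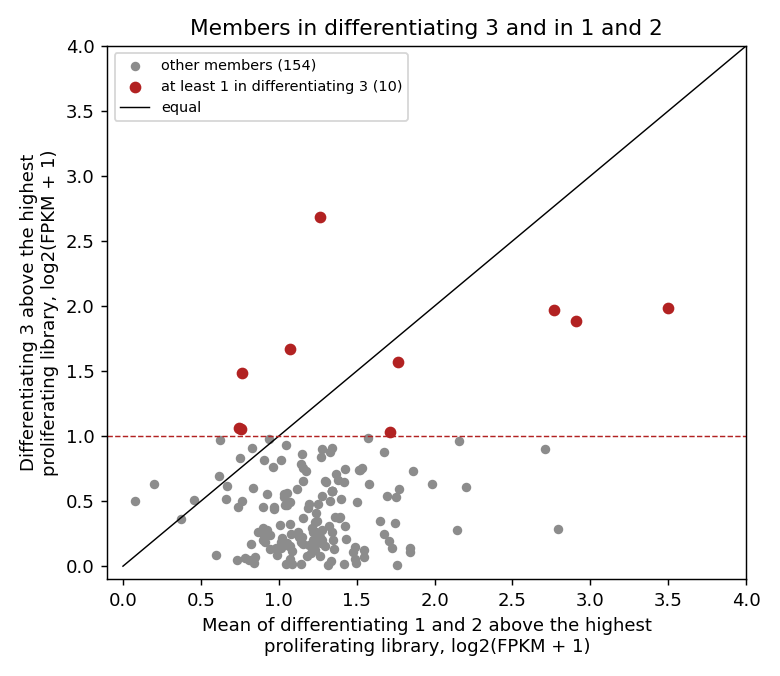
For each of the 164 genes, the excess of differentiating 3 over the highest proliferating library is plotted against that of the mean of differentiating 1 and 2, both in log2(FPKM + 1). The 10 red points are at or above 1 in differentiating 3, and most grey points lie below the line of equal values.

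The 10 strong genes were of 2 kinds. In KP509_03G023700, KP509_05G082600, KP509_03G023800, KP509_31G047700 and KP509_03G008800 all 3 differentiating libraries were high and differentiating 3 was the lowest of them. KP509_03G008800 was the evenest, with 4.64, 7.47 and 3.19 FPKM in proliferating and 28.1, 27.4 and 24.2 FPKM in differentiating callus, a log2 difference of 2.23 (SE 0.25). KP509_31G047700 was at 21.1, 15.4 and 14.7 FPKM and at 68.7, 74.4 and 44.1 FPKM, a difference of 1.80 (SE 0.23).

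In the remaining 5, differentiating 3 was the highest library. KP509_05G028200, listed at 0 in proliferating callus, was at 1.37, 1.44 and 5.43 FPKM in differentiating 1 to 3. KP509_20G024000 was at 1.08, 0.27 and 0.26 FPKM in proliferating and 3.22, 3.54 and 5.63 FPKM in differentiating callus. KP509_15G025300 was at 0.72, 0.35 and 0.74 FPKM and at 3.18, 1.08 and 3.88 FPKM. These 3 were low-abundance members, with no library above 5.63 FPKM.

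KP509_05G004700 and KP509_24G000500 were better expressed. The former was at 5.81, 6.78 and 8.42 FPKM in proliferating and 15.6, 14.0 and 18.6 FPKM in differentiating callus, a log2 difference of 1.10 (SE 0.17). The latter was at 13.7, 8.64 and 14.6 FPKM and at 26.8, 24.2 and 31.4 FPKM, a difference of 1.12 (SE 0.21). Across all 9 members with differentiating 3 highest, mean abundance was low, with a median of 2.89 FPKM and a maximum of 19.9 FPKM.

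**Figure D4:**
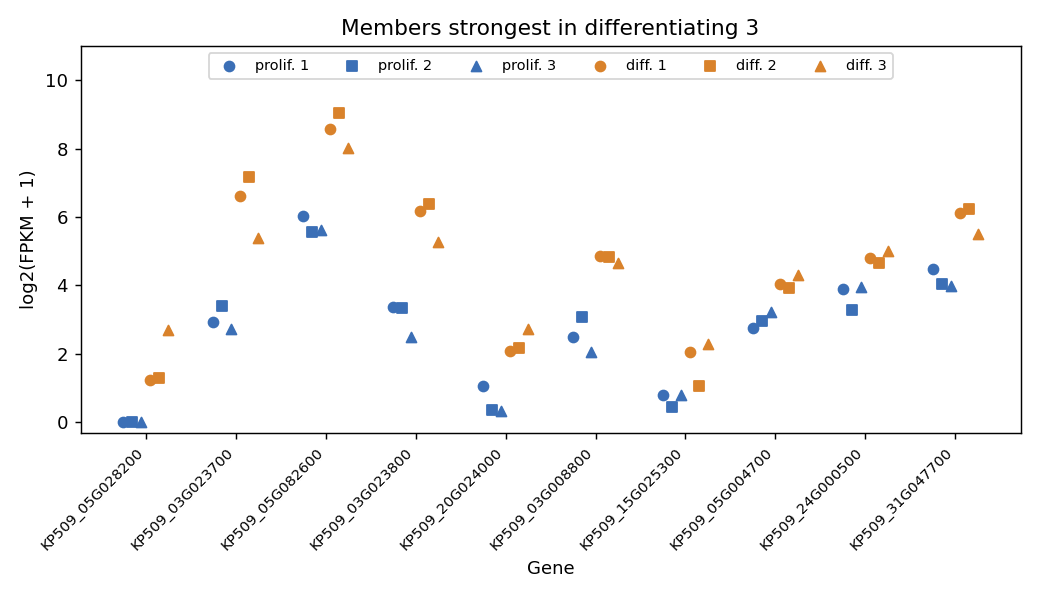
log2(FPKM + 1) of the 10 genes strongest in differentiating 3, in order of their excess there; blue marks are proliferating and orange marks differentiating libraries, with shapes for replicates 1, 2 and 3. The blue and orange marks of each gene are apart, and the orange triangle (differentiating 3) is the top mark in 5 genes.

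At the other end, KP509_21G039000 was furthest short in differentiating 3, at -2.5 log2 units relative to the mean of differentiating 1 and 2. KP509_26G035700 and KP509_05G082400 were at -1.87 and -1.80. KP509_25G015900 was at 1.12, 1.65 and 0.27 FPKM in proliferating and 7.5, 8.45 and 1.66 FPKM in differentiating callus, so that it entered the set by 0.01 FPKM. KP509_22G054400 was at 66.1, 98.0 and 106 FPKM and at 310, 466 and 114 FPKM. KP509_35G067200 was at 22.1, 46.4 and 26.7 FPKM and at 147, 194 and 51.2 FPKM. In the last 3 genes and in KP509_21G039000, differentiating 3 was at most 0.29 log2 units above the highest proliferating library, while differentiating 1 and 2 lay well above both.

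Members were found on 38 of the 39 chromosomes. There were none among the 476 locus tags within the limits on chromosome 32. The most, 10, were on chromosome 5, or 1.74% of its 575 locus tags within the limits, beside 0.776% of the 21124. Sequence not placed on a chromosome held 18 members (10.98% of them), against 5.01% of the 21124 locus tags. Some of the 18 had identical values, so that they held 14 of the 160 distinct profiles among members. On chromosomes, 4 members were directly next to another member, in 2 pairs, and 12 members in 6 pairs had at most 1 gene between them. Whether these counts are high or low for a set of this size was not tested. No triple occurred on a chromosome. The order of genes was taken from the C.richardii_v2 assembly, and coordinates are omitted, the expression table naming no build.

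The 2 direct pairs differed in their libraries. KP509_03G023700 and KP509_03G023800, described above, were both highest in differentiating 2. The gene before them, KP509_03G023600, was at 6.05 and 11.4 FPKM in differentiating 1 and 2, but at 0.22 FPKM in differentiating 3, exactly its value in proliferating 1 and 2, and so was no member. KP509_05G004700 was followed by KP509_05G004800, at 1.14, 0.91 and 1.23 FPKM in proliferating and 3.46, 3.74 and 3.25 FPKM in differentiating callus. In this pair the 3 differentiating libraries were alike. The 2 genes before them, KP509_05G004500 and KP509_05G004600, differed by 0.85 and 0.70, short of the limit.

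In the other 4 pairs 1 gene lay between the members. KP509_05G082500, between KP509_05G082400 and KP509_05G082600, was at 28.6, 74.0 and 39.5 FPKM in proliferating and 60.9, 101 and 31.7 FPKM in differentiating callus, and its groups overlapped. KP509_39G014000 was at 10.6, 4.12 and 0.97 FPKM and at 16.6, 47.1 and 13.5 FPKM, and KP509_39G014200 at 3.99, 2.2 and 0 FPKM and at 7.19, 22.7 and 4.37 FPKM. Both followed one order over the libraries, lowest in proliferating 3 and highest in differentiating 2, while KP509_39G014100 between them was at 0 to 0.30 FPKM throughout. KP509_20G024000 and KP509_20G024200 did not share an order: the first peaked in differentiating 3, and the second had 6.11 FPKM in differentiating 2 but 0.91 FPKM in differentiating 3. KP509_29G062800 peaked in differentiating 1 at 12.2 FPKM, and KP509_29G063000 in differentiating 2 at 19.3 FPKM. Without differentiating 2, the log2 difference of KP509_20G024200 was 0.56 in place of 1.13, and that of KP509_29G063000 was 0.64 in place of 1.22.

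**Figure D5:**
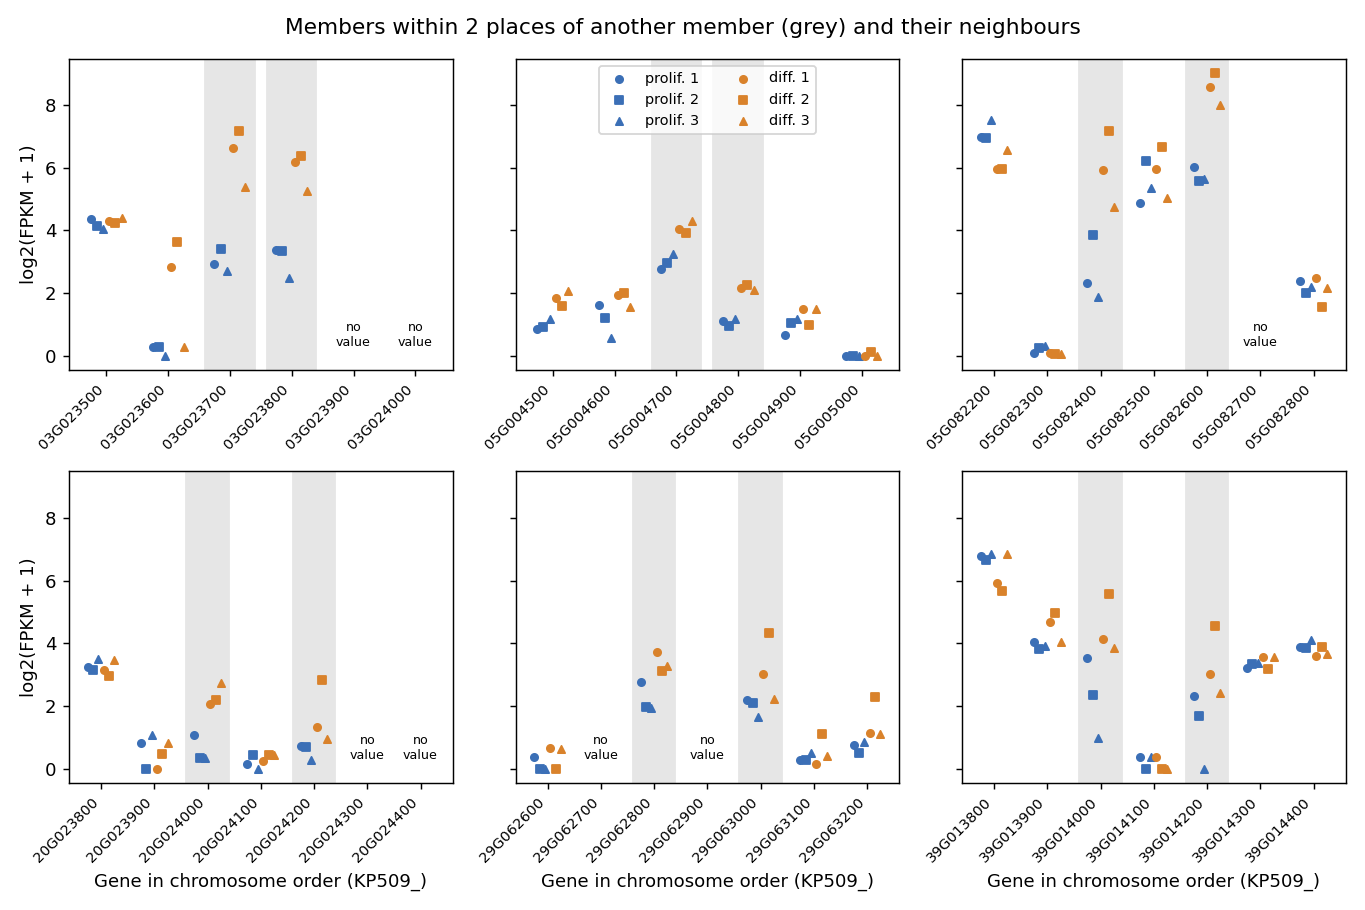
log2(FPKM + 1) in the 6 libraries along the 6 stretches of chromosome where members (grey bands) lie at most 1 gene apart. The genes up to 2 places to either side are included. Genes marked as having no value have no entry among the deposited values. Orange marks stand above blue ones in the bands, while many genes between and beside them show mixed marks.

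Beside members on chromosomes lay 176 neighbours that were within the limits on mean FPKM but were no members. Their median log2 difference was 0.089, against -0.0028 over all 20960 non-members. Of the 176, 13 (7.39%) differed by at least 1 upward and 1 by at least 1 downward, where 0.954% of non-members differed so upward. The genes on both sides of KP509_21G039000 were among the 13, with differences of 1.89 for KP509_21G038900 and 1.10 for KP509_21G039100. In KP509_21G038900, differentiating 3 was below proliferating 2 only. In KP509_21G039100 it was below every proliferating library, at 17.5 FPKM against 18.9, 21.9 and 21.0 FPKM. KP509_02G028000, next to KP509_02G028100, differed by 1.92 and missed the set by its 150 FPKM in differentiating 3 against 154 FPKM in proliferating 2. The downward neighbour was KP509_26G010900, at 481, 329 and 585 FPKM in proliferating and 99.8, 44.2 and 310 FPKM in differentiating callus. It lies next to the member KP509_26G010800, which had 1.04, 0.84 and 1.23 FPKM against 8.33, 10.3 and 2.40 FPKM. These neighbours were named after their values were seen.

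The unplaced members included genes with equal values. KP509_1Z230600, KP509_1Z246300, KP509_1Z246400, KP509_1Z246500 and KP509_1Z289200 had identical values, 10.3, 9.45 and 12 FPKM in proliferating and 46.7, 21.7 and 18.4 FPKM in differentiating callus. They count as 1 profile, which leaves 160 distinct profiles among the 164 genes and 14 among the 18 unplaced ones. KP509_1Z289100, at 158, 125 and 161 FPKM and at 585, 271 and 255 FPKM, and KP509_1Z289400, at 63.7, 57.4 and 70.3 FPKM and at 245, 125 and 111 FPKM, ran nearly in proportion to them. The SD of the log2 ratio to the identical set was 0.11 and 0.085, and no non-member came below 0.15. In these 7 genes differentiating 1 was the highest library, unlike in most members. Of the 5 unplaced members whose tags directly follow one another, 4 belong to the identical set, and which unplaced sequence each tag lies on was not analysed here.

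Just inside the limit on the log2 difference were KP509_35G052000 at 1.0017, KP509_07G087800 at 1.0029 and KP509_25G064500 at 1.02, and just outside it KP509_28G023600 at 0.99987, KP509_09G051800 at 0.99947 and KP509_38G011100 at 0.997. By the gap between groups, KP509_13G077500, KP509_25G015900 and KP509_05G074300 were inside by 0.0033 to 0.0075 log2 units. KP509_03G023600, KP509_30G007700 and KP509_20G029900 were outside by 0 to 0.010. The lowest means inside were those of KP509_12G012100, KP509_31G052300 and KP509_10G051900 at 1.09 to 1.22 FPKM, and the highest outside were KP509_11G018500, KP509_29G080200 and KP509_28G032300 at 0.835, 0.762 and 0.755 FPKM. Above the upper limit stood KP509_27G039300, with 725, 1121 and 999 FPKM in proliferating and 2153, 2825 and 1513 FPKM in differentiating callus.

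In the limma fit over all 22371 genes, 0 members and 0 genes in all (0%) passed 0.05 in the adjusted p together with a log2 difference of 1 or more, upward. The lowest adjusted p of a member was 0.234. At an unadjusted p under 0.05, 158 of the 164 were higher, beside 5.53% of all tested genes. Without differentiating 3, limma called 63 of the 164 and 131 genes in all (0.586%). Because the contrast that chose the members is the one fitted, these counts are not evidence about them.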

How the data were processed

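Per the labels' protocols, 6 callus libraries, 3 per group by the labelled condition, gave paired 150 bp DNBSEQ reads. The deposited values are FPKM per gene, with 1 column per library, per the file headers. The tools named, with no roles, per the submitters' processing notes are RSEM, DESeq2, Bowtie2 2.2.5 and HISAT2 2.1.0. Build and annotation: not given in the sources used here. A count model needs counts and was not fitted to FPKM, and with depth unknown no counting interval can be given.

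All 28430 locus tags matched the C.richardii_v2 table, which was used for gene order alone. Differences are differentiating minus proliferating in log2(FPKM + 1), a scale that understates changes of low genes. limma 3.58.1 in R 4.3.3 (group as the only term, variance trend, two-sided, Benjamini-Hochberg over the 22371 genes averaging 1 FPKM or more) gave SEs and adjusted p, and was tested on simulated data. Tables and plots were made in Python 3.11.15 with pandas 2.3.3, NumPy 2.4.6 and matplotlib 3.10.9. P-values set the difference between groups against the spread of these libraries within groups, which may be technical.

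Members, tests and alternatives were chosen with earlier results of these data known. Named members are the 6 with the largest difference, abundance, excess in differentiating 3 and shortfall there, those next to other members, and those at each limit; others are named as seen afterwards. Protein and promoter features were not analysed here. No 2 libraries were copies: at most 0.59% of tested genes had equal values above 0 in any pair.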

Additional observations from a re-analysis of the deposited data

How the results depend on the processing

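The number of members, 164, was 241 with a pseudocount of 0.1, 167 after quantile normalization and 40 at a log2 difference of at least 1.5. With 1 library left out it ran from 117 (without differentiating 2) to 617 (without differentiating 3), and was 383 without proliferating 2. Each of these settings has a group of 2, which can overlap less. The number was 220, 161 and 163 without proliferating 1, proliferating 3 and differentiating 1. Among the 617 and the 383 were 161 and 156 of the 164. Without proliferating 2 and differentiating 3 together, a setting chosen after seeing the data, it was 974. The 10 genes strong in differentiating 3 became 31 with a pseudocount of 0.1, 49 against the proliferating mean, and 11 to 35 with 1 library left out (35, 26 and 21 without proliferating 1, 2 and 3); without differentiating 3 it has no value. The 9 of 164 members next to another, unplaced ones included, became 15 of 241 with a pseudocount of 0.1. They became 20 of 164 with up to 2 genes between, 157 of 974 without both libraries, and 8 to 89 with 1 left out. That was 19 of 220, 45 of 383 and 15 of 161 without proliferating 1, 2 and 3, and 89 of 617 without differentiating 3. A larger set holds more neighbours by itself, so these counts are not comparable across settings. The members called by limma, 0 in all, were 103 of 649 genes called higher without both libraries, and 0 to 63 with 1 left out (63 of 131 without differentiating 3). What caused these moves was not tested. The median log2 difference of the members stayed between 1.08 and 1.58. With the replicate number as a block (replicate block) limma called 57 genes higher, 45 of them members, but libraries 1, 2 and 3 correlated across groups at -0.0955, 0.572 and 0.45 in their deviations from group means, so the numbers do not pair all libraries and the 45 are a value only. Not every library was closest to its own number. Absolute depth is unknown.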
